A study of Mus musculus with 8 samples.

Results

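Neurogenesis and early neuron genes were followed in whole mouse embryos at embryonic day 9.5 that carried a substitution in Smoothened. The set was chosen by gene symbol, with earlier results of these data known, among them those of Stmn3 and Elavl3. It holds 36 genes of the 41709 symbols in the deposited table. It covers proneural transcription factors, RNA-binding and cytoskeletal proteins of newly formed neurons, and early membrane and synaptic proteins. Of the 36 genes, 34 reached at least 1 TPM (reads scaled by gene length and by the library's total) in at least 4 of the 8 embryos and were tested among 13596 genes. Snap25 and Syt1 did not, and are described by their values. Every embryo was a single sample: 4 mutants were homozygous for Smo K399A (SmoK399A/K399A) and 4 were wild type (WT, Smo+/+). All 8 came from parents that were both SmoK399A/+. Several litters were used, and the labels do not tie an embryo to a litter. The allele was present in the whole animal, so no driver line or cell type restricted it.

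In the vertebrate neural tube and in the cranial and spinal ganglia, progenitors that leave the cell cycle switch on basic helix-loop-helix proneural factors such as Neurog1 and Neurog2. These activate a cascade of later factors, among them Neurod1, Neurod4, Nhlh1 and Nhlh2, while Notch signalling holds neighbouring cells in the progenitor state. New neurons then make the neuronal tubulin Tubb3, RNA-binding proteins of the Elavl (Hu) family, stathmins and neurofilaments, and only later the proteins of working synapses. Hedgehog signalling, which passes through Smoothened, sets the ventral cell fates of the neural tube, including motor neurons.

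Each library held between 60.1 and 61.5 M reads (M, mega), as recovered from the steps between TPM values. Tested genes of the set rested on 47 reads (Nhlh2 in mutant 4) to 12200 reads (Dpysl3) in a library. The spread among embryos of a genotype was not compared with counting error. Markers of neural progenitors, heart muscle and primitive red cells were detected in every embryo. Mutants 3 and 4 stood apart as libraries: mt-Nd6, a mitochondrial transcript of the light strand, had 4.06 and 10.8 TPM there, 27.9 and 32.7 TPM in mutants 1 and 2, and 32.4 to 36.2 TPM in WT embryos. Yolk sac endoderm transcripts differed too. The mean of log2(TPM + 1) over 17 such genes was 5.60, 5.01, 3.44 and 2.69 in mutants 1 to 4 and 1.03, 1.53, 3.49 and 1.16 in WT 1 to 4. Xist, the RNA that silences an X chromosome in female cells, reached 91.9 and 22.4 TPM in mutants 2 and 4, and 63.8 and 51.4 TPM in WT 1 and 3. It was at most 0.0239 TPM in the other 4 embryos, in which 4 Y-linked genes summed to 45.4 to 72.9 TPM.

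Neuron genes were on average lower in mutants than in WT embryos, but no single gene passed the test. Of the 34 tested genes, 32 had a log2 fold change below 0, against 62.3% of all tested genes. A log2 fold change below -0.5 was found for 21 of the 34, against 2.27% of all tested genes, and the median was -0.65, against -0.04 over all tested genes. Limma called 0 of the 34 at a Benjamini-Hochberg adjusted p under 0.05, and 0 of all tested genes (0%). At an unadjusted p under 0.05, limma gave 15 of the 34, every one lower in mutants, against 8% of all tested genes lower at that p. Since the set was chosen with earlier results known, these contrasts with all tested genes describe it and do not test it. Limma voom on recovered reads also called 0 genes and gave 14 of the 34 at an unadjusted p under 0.05, against 15.7% of all genes in that fit in either direction. The count of 15 was 4 without WT 2, 5 without WT 4 and 5 without mutant 4, against 8.92%, 9.22% and 9.86% of all tested genes in either direction. Without mutants 3 and 4 it was 1 (12.6% of all tested genes), with 30 of 34 genes below 0 (41.3% of all tested genes) and a median of -0.42. In these whole-embryo libraries, fewer neurons, less RNA per neuron, a larger share of other tissues and an earlier stage cannot be told apart.

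**Figure D1:**
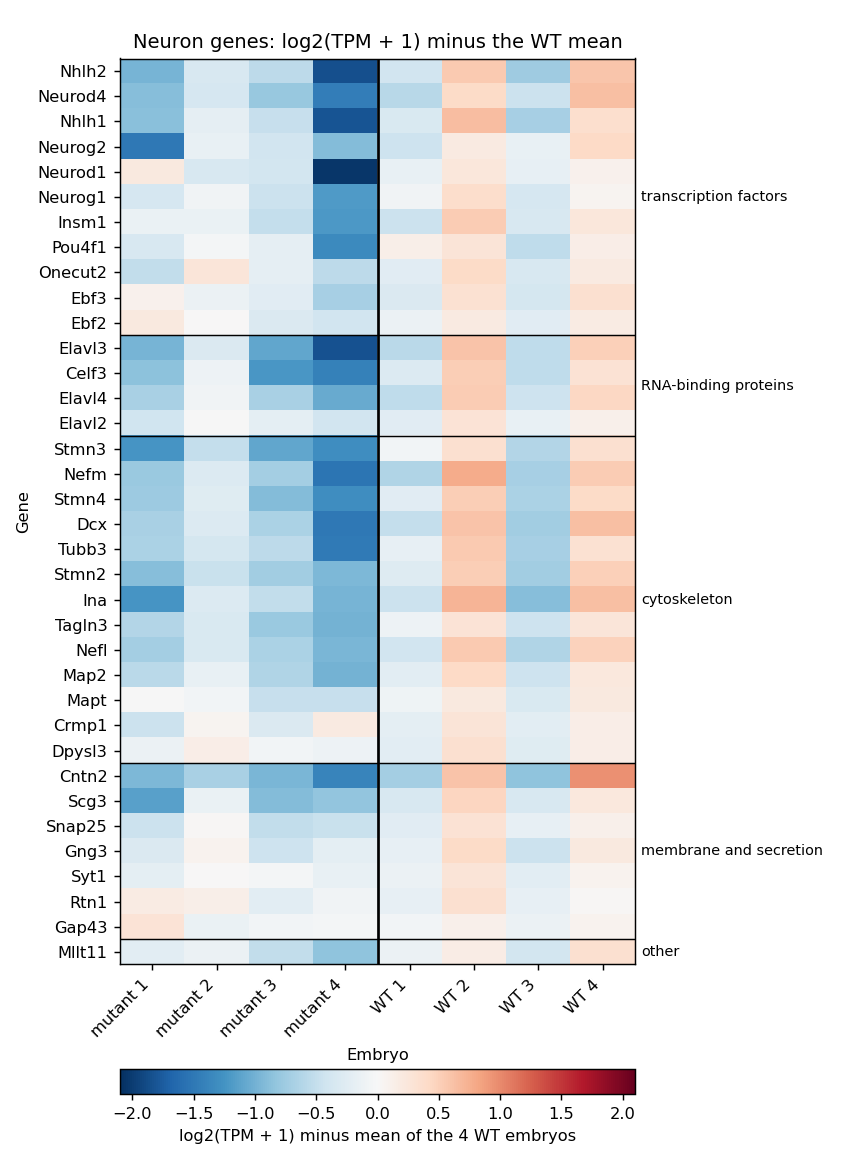
Level of each of the 36 neuron genes in every embryo, as log2(TPM + 1) minus the mean of the 4 WT embryos (colour scale), with genes in rows grouped by role and mutants left of WT. Mutant 4 has the deepest blue in most rows, and WT 2 and WT 4 are red in nearly all rows while WT 1 and WT 3 are mostly pale blue.

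The WT embryos did not form a single level. WT 2 and WT 4 were both above the other 6 embryos for 27 of the 34 tested genes, against 6.69% of all tested genes, and 1 of these 2 was the highest of the 8 for 32 of the 34, against 22.5%. WT 1 and WT 3 lay near the mutants. In no tested neuron gene were all 4 mutants below all 4 WT embryos (0 of 34, against 3.82% of all tested genes). Within the mutants, mutant 2 was the highest for 26 of the 34 genes (37.3% of all tested genes) and mutant 4 the lowest for 24 of the 34 (32.7%). The summed level of all 36 genes was 514, 608, 503 and 400 TPM in mutants 1 to 4 and 589, 925, 507 and 849 TPM in WT 1 to 4. Thus mutant 2 lay above WT 1 and WT 3 in this sum, and mutant 3 was close to WT 3.

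WT 2 and WT 4 were also the WT embryos without Xist, and WT 1 and WT 3 those with it. Among mutants the order did not follow Xist, since mutants 2 and 4, both with Xist, were the highest and the lowest for most genes. Between embryos without Xist (mutants 1 and 3 against WT 2 and 4), 33 of the 34 genes were below 0, against 66.4% of all tested genes, with a median log2 fold change of -1.01. Between embryos with Xist (mutants 2 and 4 against WT 1 and 3), 27 of the 34 were below 0, against 53.4% of all tested genes, with a median of -0.24. The unadjusted limma p was under 0.05 for 28 of the 34 without Xist and for 1 with Xist, against 8.5% and 6.77% of all tested genes. The test of the difference between these fold changes, a limma interaction over all genes, called 0 of 13596 genes (smallest adjusted p = 1.00). At an unadjusted p under 0.05 it gave 10 of the 34 neuron genes, against 3.93% of all tested genes. With Xist as a second term in the fit, 20 of the 34 had an unadjusted limma p under 0.05 for genotype, against 13.1% of all tested genes, and 0 of all tested genes passed after adjustment. Only 2 mutants and 2 WT embryos stand behind each of these comparisons. Litter and stage cannot be told apart from Xist status, as the labels name no litter and no stage finer than embryonic day 9.5. The split by Xist was chosen after the data were seen. Its WT embryos without Xist, WT 2 and WT 4, are the pair already seen to be high. The larger differences among embryos without Xist therefore partly restate that pattern.

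**Figure D2:**
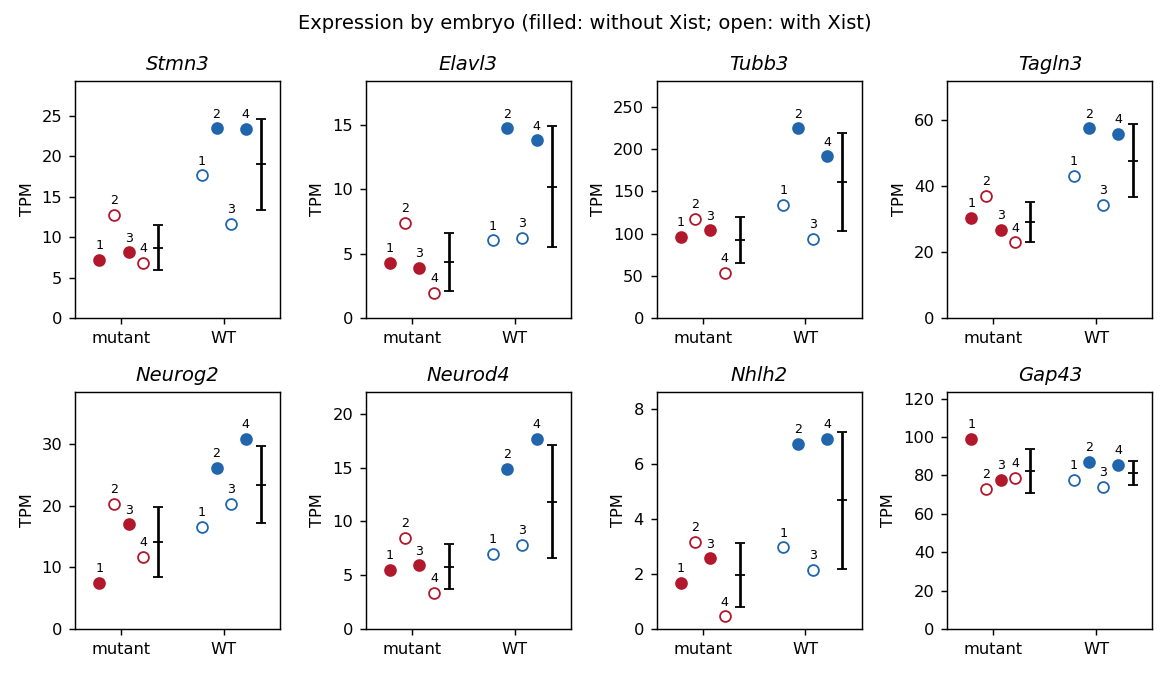
TPM of 8 neuron genes in each embryo (numbered points; filled without Xist, open with Xist), with the mean and SD of each genotype beside them, n = 4 each. For Elavl3, Neurod4 and Nhlh2, WT 2 and WT 4 stand clear of the other 6 embryos, while Gap43 lies between 73.1 and 98.9 TPM in all 8.

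Several genes of the set encode basic helix-loop-helix factors, and the promoters of the set were searched for the E-box, the hexamer CANNTG that such factors bind. RefSeq promoters were held for 25 of the 36 genes (45 promoters), and the 250 bases before each start were searched on both strands. The form CAGATG was found in 10 of the 45 promoters (22.2%), against 14.4% of 32851 promoters, and CAGCTG in 9 of 45, against 13.0%. At least 1 of these 2 forms was in 17 of 45 promoters (37.8%, against 25.5%), which belong to 10 of the 25 genes. CAGGTG was in 7 of 45 (15.6%, against 17.2%) and CACGTG in 0 of 45 (against 6.02%). The GC box GGGCGG was in 26 of 45 (57.8%, against 32.7%), and TTCAGCACC, part of the element bound by the neuronal repressor REST, in 0 of 45 (against 0.301%). Promoters of a gene can overlap, so these shares describe the windows and are not counts of independent genes. The windows of Stmn3 and Elavl3, which had the most negative log2 fold changes on the TPM + 1 scale (with a pseudocount of 0.1 those of Nhlh2 and Cntn2, at -1.32 and -1.31, were lower still), and of the paralogs Nhlh1 and Nhlh2 are shown with CAGATG and CAGCTG in capitals, 5′ to 3′ on the gene's strand, build GRCm38.p6. They lie at chr2:181314501-181314750 (minus strand), chr9:22052024-22052273 (minus), chr1:172057597-172057846 (minus) and chr3:102009895-102010144 (plus).
Stmn3: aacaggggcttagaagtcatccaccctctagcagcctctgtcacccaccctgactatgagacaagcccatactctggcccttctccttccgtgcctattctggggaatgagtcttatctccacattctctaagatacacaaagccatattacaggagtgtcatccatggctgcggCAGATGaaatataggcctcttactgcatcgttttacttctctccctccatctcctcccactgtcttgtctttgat
Elavl3: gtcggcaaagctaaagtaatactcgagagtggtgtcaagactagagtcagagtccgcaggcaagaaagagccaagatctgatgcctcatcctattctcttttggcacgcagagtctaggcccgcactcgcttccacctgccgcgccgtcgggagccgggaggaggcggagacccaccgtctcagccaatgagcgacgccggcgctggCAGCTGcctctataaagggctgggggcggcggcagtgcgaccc
Nhlh1: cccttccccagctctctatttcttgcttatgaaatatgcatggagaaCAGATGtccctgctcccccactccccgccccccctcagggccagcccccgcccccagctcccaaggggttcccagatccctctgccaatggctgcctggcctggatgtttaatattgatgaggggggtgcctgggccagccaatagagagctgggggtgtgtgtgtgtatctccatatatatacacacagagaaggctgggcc
Nhlh2: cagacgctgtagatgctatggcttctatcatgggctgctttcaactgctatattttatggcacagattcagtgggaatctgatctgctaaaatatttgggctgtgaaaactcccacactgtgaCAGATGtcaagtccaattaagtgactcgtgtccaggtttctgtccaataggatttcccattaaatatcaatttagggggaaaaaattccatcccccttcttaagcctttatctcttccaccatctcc
The capitals begin 75 bases before the start in Stmn3, 43 in Elavl3, 203 in Nhlh1 and 127 in Nhlh2.

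The 11 transcription factors all had a log2 fold change below 0 (62.3% of all tested genes). Their median was -0.52, with a range from -0.93 (Nhlh2) to -0.12 (Ebf2). Of these factors, 3 were lower at an unadjusted limma p under 0.05, against 8% of all tested genes. Neurog2, the proneural factor of much of the neural tube, was at 7.42, 20.3, 16.97 and 11.6 TPM in mutants 1 to 4 and at 16.6, 26.1, 20.3 and 30.8 TPM in WT 1 to 4. Mutants 1 and 4 were below all WT embryos, and mutants 2 and 3 were level with WT 3 and WT 1. Its log2 fold change was -0.75 ± 0.29 (SE; limma unadjusted p = 0.0274, adjusted p = 0.329). Neurog1, the proneural factor of cranial sensory ganglia and of part of the neural tube, was at 18.2, 22.0, 16.8 and 9.62 TPM in mutants and at 22.0, 30.5, 18.0 and 24.3 TPM in WT. Here mutant 4 was the lowest and mutant 1 was level with WT 3. Neurog1 thus made up 71.0% of the summed TPM of both genes in mutant 1, 45.2% to 52.0% in mutants 2 to 4, and 44.1% to 57.1% in WT embryos.

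Neurod4, which acts after the neurogenins, was at 5.49, 8.43, 5.90 and 3.37 TPM in mutants and at 6.99, 14.9, 7.78 and 17.7 TPM in WT (log2 fold change -0.87 ± 0.31, limma unadjusted p = 0.0200, adjusted p = 0.317). Mutant 2 lay above WT 1 and WT 3, and the other 3 mutants below all WT embryos. Neurod1, of sensory ganglia and later of many neurons, was at 11.6, 7.64, 7.36 and 1.65 TPM in mutants and at 8.80, 11.9, 8.71 and 10.6 TPM in WT. Mutant 4 was far the lowest, while mutant 1 was above 3 of the 4 WT embryos (log2 fold change -0.64 ± 0.40, limma unadjusted p = 0.144, adjusted p = 0.468). Nhlh2, a factor of newly born neurons, was at 1.66, 3.16, 2.56 and 0.456 TPM in mutants and at 2.96, 6.71, 2.14 and 6.90 TPM in WT. Its paralog Nhlh1 was at 5.19, 8.93, 7.12 and 2.22 TPM in mutants and at 8.08, 16.8, 5.99 and 13.5 TPM in WT, with the same order of embryos within each genotype except that WT 2 and WT 4 changed places. Of both, mutants 2 and 3 were above WT 3.

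Insm1, a zinc finger repressor of neural and endocrine progenitors, averaged 7.73 ± 2.63 TPM in mutants and 11.3 ± 4.00 TPM in WT (SD, n = 4 each). Pou4f1 (Brn3a), which marks sensory neurons, averaged 3.01 ± 1.34 and 4.39 ± 1.20 TPM in mutants and WT, with mutant 4 at 1.09 TPM and the other mutants at 3.20 to 4.13 TPM. Ebf2 and Ebf3, which also act in mesenchyme, had log2 fold changes of -0.12 (95% CI -0.48 to 0.23) and -0.24 (95% CI -0.73 to 0.24), and mutant 1 held the highest Ebf2 level of all 8 embryos, 9.73 TPM. Onecut2, a homeodomain factor of motor and other neurons, averaged 1.89 ± 0.785 TPM in mutants and 2.43 ± 0.839 TPM in WT.

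**Figure D3:**
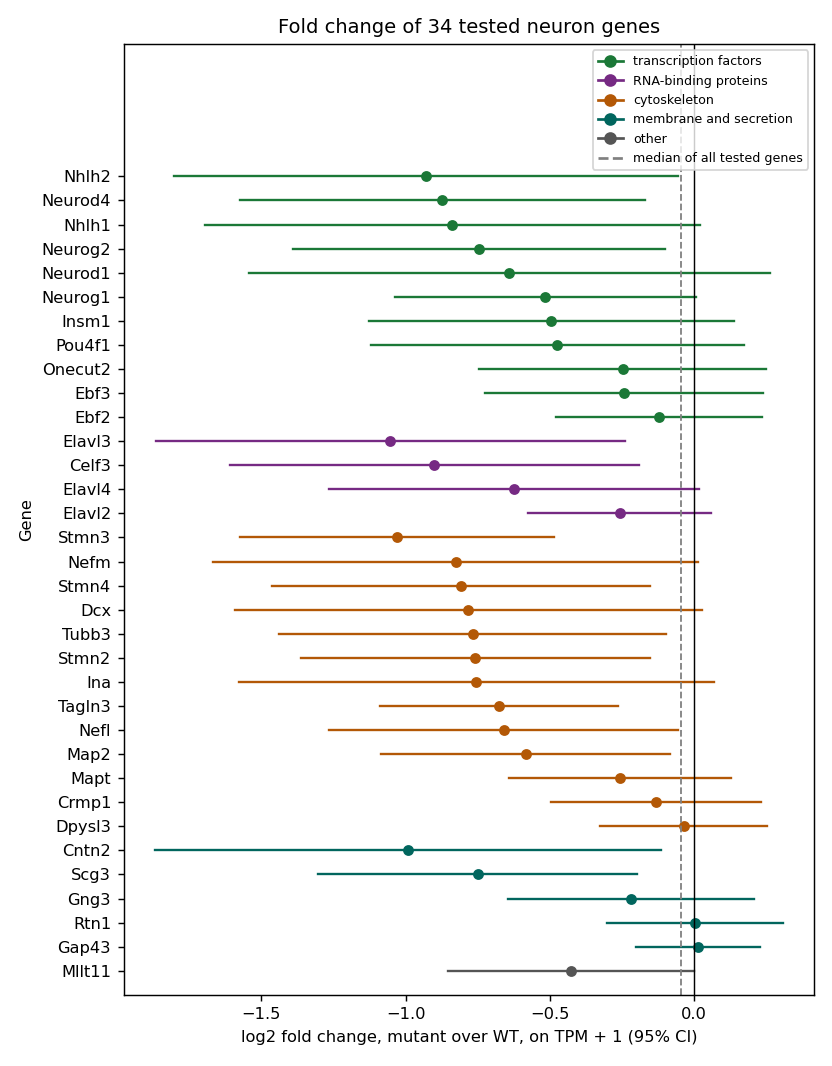
Log2 fold change (mutant over WT, on the TPM + 1 scale) of the 34 tested neuron genes with its 95% confidence interval from limma, coloured by role, with the median of all tested genes as a dashed line. Points run from -1.05 (Elavl3) to 0.01 (Gap43), and the intervals of 15 genes lie wholly below 0.

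All 4 RNA-binding proteins had a log2 fold change below 0 (62.3% of all tested genes), with a median of -0.76. Elavl3 and Celf3, 2 of the 4, were lower at an unadjusted limma p under 0.05 (8% of all tested genes). Elavl3 (HuC, chromosome 9, 22015005 to 22052023, build GRCm38), a stabiliser of neuronal mRNAs, was at 4.29, 7.42, 3.88 and 1.95 TPM in mutants 1 to 4 and at 6.05, 14.7, 6.25 and 13.8 TPM in WT 1 to 4. Mutant 2 alone overlapped WT, lying between WT 3 and the high pair. Its log2 fold change was -1.05 ± 0.36 (limma unadjusted p = 0.0165, adjusted p = 0.313), and was -0.52 between embryos with Xist and -1.59 between those without. Elavl4 (HuD) was at 6.27, 10.1, 6.26 and 4.59 TPM in mutants and at 7.07, 15.8, 7.68 and 14.7 TPM in WT, a log2 fold change of -0.62 ± 0.29 (limma unadjusted p = 0.0549). Elavl2 (HuB) differed less, at 7.03, 9.72, 8.33 and 7.13 TPM in mutants and at 8.16, 12.1, 8.68 and 10.5 TPM in WT (-0.26 ± 0.14, limma unadjusted p = 0.0983). The share of Elavl2 in the summed TPM of the 3 paralogs was therefore 40.0%, 35.7%, 45.1% and 52.2% in mutants and 38.4%, 28.3%, 38.4% and 27.0% in WT, while that of Elavl3 averaged 21.7% in mutants and 31.5% in WT. WT 1 and WT 3 had shares between those of WT 2 and 4 and those of mutants 1, 3 and 4. Celf3, a splicing regulator of neurons, was at 3.03, 5.77, 2.14 and 1.72 TPM in mutants and at 4.97, 9.48, 4.02 and 8.01 TPM in WT (-0.90 ± 0.31, limma unadjusted p = 0.0179).

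Among the cytoskeletal genes 13 of 13 had a log2 fold change below 0 (62.3% of all tested genes), with a median of -0.76. At an unadjusted limma p under 0.05, 7 of them were lower (8% of all tested genes). The stathmins bind tubulin and regulate microtubule assembly in growing axons. Stmn3 (chromosome 2, 181306459 to 181314500, build GRCm38) had the smallest p of the whole set, at 7.21, 12.7, 8.12 and 6.79 TPM in mutants and at 17.6, 23.4, 11.6 and 23.3 TPM in WT. Mutant 2 lay above WT 3, and the other 3 mutants were below every WT embryo. The log2 fold change was -1.03 ± 0.24 (limma unadjusted p = 0.00188, adjusted p = 0.281). Stmn2 (SCG10) was at 4.93, 6.91, 5.64 and 4.70 TPM in mutants and at 8.08, 14.7, 5.60 and 14.5 TPM in WT (-0.76 ± 0.27, limma unadjusted p = 0.0191). Stmn4 was at 2.37, 3.79, 2.07 and 1.32 TPM in mutants and at 3.84, 7.17, 2.63 and 6.54 TPM in WT (-0.81 ± 0.29, limma unadjusted p = 0.0207). Stmn3 kept between 49.7% and 54.3% of the summed TPM of the 3 stathmins in mutants and between 51.8% and 59.7% in WT.

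Tubb3, the tubulin of neurons and the most abundant gene of the set in WT 2, was at 95.6, 117, 104 and 53.9 TPM in mutants and at 134, 224, 93.3 and 191 TPM in WT (-0.77 ± 0.30, limma unadjusted p = 0.0290, adjusted p = 0.330). Only mutant 4 was below all WT embryos. Tagln3, a calponin-related protein of neurons, was at 30.2, 37.1, 26.6 and 22.9 TPM in mutants and at 43.1, 57.4, 34.2 and 55.8 TPM in WT (-0.68 ± 0.18, limma unadjusted p = 0.00459, adjusted p = 0.281). Mutant 2 exceeded WT 3, and no other mutant reached a WT level. Map2, the microtubule protein of dendrites, was at 3.71, 5.31, 3.54 and 2.51 TPM in mutants and at 5.02, 8.39, 4.20 and 7.15 TPM in WT (-0.58 ± 0.22, limma unadjusted p = 0.0270), whereas Mapt (tau, of axons) averaged 1.57 ± 0.462 TPM in mutants and 2.08 ± 0.531 TPM in WT. Dcx, the doublecortin of migrating neurons, averaged 1.52 ± 0.801 TPM in mutants and 3.53 ± 2.09 TPM in WT, with WT 2 and WT 4 at 5.26 and 5.40 TPM and the other 6 embryos between 0.465 and 2.41 TPM.

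The neurofilament genes shared the split among WT embryos. Nefm was at 10.3, 14.7, 10.7 and 5.67 TPM in mutants and at 11.5, 32.0, 10.9 and 26.9 TPM in WT. Nefl, the light subunit, averaged 12.1 ± 2.47 TPM in mutants and 20.7 ± 8.59 TPM in WT, and Ina (internexin) averaged 8.38 ± 2.73 and 16.1 ± 8.56 TPM in mutants and WT. Nefl (chromosome 14, 68083863 to 68089095) and Nefm (68082590 to 68124846) overlap on opposite strands over 1108 annotated exon bases, and the strand setting of the counts is not given in the sources used here, so part of their reads cannot be told apart. Ina shares 456 exon bases with the opposite-strand gene Nt5c2 in the same way. Stmn4 (start at 66344296) and Ebf2 (start at 67233292) lie on the same chromosome as the neurofilament genes, and Ebf2 was spread less among WT embryos, at 7.54, 9.63, 6.87 and 9.499 TPM in WT 1 to 4. The collapsin response proteins, which relay guidance signals to the cytoskeleton, were nearly level: Crmp1 had a log2 fold change of -0.13 (95% CI -0.50 to 0.23) and Dpysl3 one of -0.04 (95% CI -0.33 to 0.25), which became 0.00719 with median-ratio scaling.

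Of the 5 tested membrane and secretory genes, 3 had a log2 fold change below 0, near the 62.3% of all tested genes, and the median was -0.22. Cntn2 (TAG-1), an adhesion molecule of early axons, was at 1.58, 2.09, 1.56 and 0.897 TPM in mutants and at 2.03, 6.47, 1.77 and 8.62 TPM in WT (-0.99 ± 0.39, limma unadjusted p = 0.0307). WT 2 and WT 4 stood far above all others, and WT 1 and WT 3 were no higher than mutant 2. Scg3, a granin of secretory granules, was at 2.89, 6.79, 3.53 and 3.82 TPM in mutants and at 5.76, 10.7, 5.80 and 8.90 TPM in WT (-0.75 ± 0.25, limma unadjusted p = 0.0132, adjusted p = 0.303). Gng3, a G protein subunit of neurons, averaged 6.82 ± 1.20 TPM in mutants and 8.27 ± 2.40 TPM in WT, and shares 398 exon bases with Bscl2 on the other strand. Gap43 and Rtn1 were on the other side of 0. Gap43, of growth cones, was at 98.9, 73.1, 77.7 and 78.8 TPM in mutants and at 77.5, 87.2, 74.1 and 85.5 TPM in WT (0.01, 95% CI -0.20 to 0.23). Rtn1, a reticulon of the endoplasmic reticulum, was at 12.7, 12.3, 9.51 and 10.6 TPM in mutants and at 9.84, 14.3, 9.78 and 11.4 TPM in WT (0.00, 95% CI -0.30 to 0.31). The sign of both changed when a single embryo was left out, and their intervals exclude a log2 fold change as low as the set's median.

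Mllt11, expressed in young neurons, averaged 14.7 ± 3.35 TPM in mutants and 20.1 ± 4.54 TPM in WT (-0.43 ± 0.19, limma unadjusted p = 0.0493). The 2 synaptic genes under the level filter were scarce in every embryo. Snap25, of synaptic vesicle fusion, was at 0.339, 0.858, 0.280 and 0.325 TPM in mutants and at 0.541, 1.26, 0.610 and 0.972 TPM in WT. Syt1, the calcium sensor of synaptic vesicles, was at 0.308, 0.514, 0.463 and 0.340 TPM in mutants and at 0.370, 0.801, 0.293 and 0.584 TPM in WT. These values rested on 38 to 159 reads per library, and both genes were again highest in WT 2.

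Other genes of the pathway were taken from lists chosen with earlier results of these data known. Among genes of the step into neurogenesis (Notch ligands, Notch modifiers and cell cycle exit genes), 14 of 16 tested had a log2 fold change below 0, 7 of them at an unadjusted limma p under 0.05, with a median of -0.40. Over all tested genes, 62.3% were below 0 and 8% were lower at that p. The 1 gene of this list that was higher at that p compares with 5.55% of all tested genes. Btg2, an antiproliferative protein of neurogenic divisions, averaged 29.8 ± 6.55 TPM in mutants and 42.3 ± 2.45 TPM in WT (limma unadjusted p = 0.00349, adjusted p = 0.281), and here all mutants, at 22.8 to 38.3 TPM, were below all WT embryos, at 40.4 to 45.9 TPM. Hes6, which relieves Hes1 repression in differentiating cells, averaged 49.5 ± 10.8 and 68.8 ± 6.54 TPM in mutants and WT, and Mfng, a modifier of Notch, 17.1 ± 2.37 and 23.0 ± 2.51 TPM. Among 30 tested genes of a further neuron list, 29 were below 0, 10 of them at an unadjusted limma p under 0.05 (8% of all tested genes), with a median of -0.27. Tubb2b, a tubulin of neural cells, averaged 496.8 ± 53.2 TPM in mutants and 646.9 ± 89.6 TPM in WT (limma unadjusted p = 0.00545, adjusted p = 0.281).

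Genes that mark neuron classes lay on both sides of 0, as did all tested genes, of which 62.3% were below 0. Of 5 tested motor neuron genes 4 were below 0 (median -0.38), led by Isl2, a LIM homeodomain factor of motor neurons, at 3.88, 1.73, 2.10 and 1.63 TPM in mutants and at 3.11, 4.37, 3.05 and 5.59 TPM in WT. Of 7 tested sensory neuron genes 4 were below 0 (median -0.29). Of 13 tested interneuron genes 8 were below 0 (median -0.07). At an unadjusted limma p under 0.05, 1 of the 5 motor neuron, 1 of the 7 sensory and 3 of the 13 interneuron genes were lower. Over all tested genes, 8% were lower at that p. Lhx5, a LIM homeodomain factor of interneurons and forebrain, had a different order of embryos from the neuron set, at 3.32, 9.37, 6.93 and 7.36 TPM in mutants and at 14.7, 12.2, 13.4 and 8.63 TPM in WT. All 10 tested Hedgehog targets and ventral neural genes had a log2 fold change below 0 (62.3% of all tested genes), 2 of them at an unadjusted limma p under 0.05 (8% of all tested genes), with a median of -0.27. Of these Olig2, a factor of motor neuron progenitors, was at 2.45, 17.3, 11.2 and 13.0 TPM in mutants and at 14.4, 23.6, 20.96 and 27.5 TPM in WT.

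Neural progenitor genes were also lower on average, so the neuron set was set against them in each embryo. Their list was chosen with earlier results of these data known, among them results for some of its genes. All 14 progenitor genes had a log2 fold change below 0 (62.3% of all tested genes; median -0.30), 4 of them at an unadjusted limma p under 0.05 (8% of all tested genes). Their mean of log2(TPM + 1) was 5.38, 6.24, 5.90 and 5.85 in mutants 1 to 4 and 6.05, 6.43, 6.11 and 6.13 in WT 1 to 4. The mean over the 34 neuron genes was 3.15, 3.53, 3.15 and 2.70 in mutants and 3.42, 4.12, 3.24 and 4.03 in WT. Neuron minus progenitor means were -2.23, -2.71, -2.75 and -3.15 in mutants and -2.64, -2.31, -2.87 and -2.09 in WT. On this scale mutant 1 lay beside WT 2 and 4, with the lowest progenitor mean of all, and mutants 2 and 3 lay between WT 1 and WT 3. Only mutant 4 was below every WT embryo. The difference between genotypes was -0.57 for the neuron mean and -0.23 after subtracting the progenitor mean, against an SD of 0.375 among mutants and 0.344 among WT embryos. This last difference moved with single embryos, to -0.39 without mutant 1, -0.36 without WT 3, -0.11 without WT 4 and -0.0876 without mutant 4. Without mutant 1 it was larger than the SD of either genotype (0.240 among mutants and 0.344 among WT embryos).

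**Figure D4:**
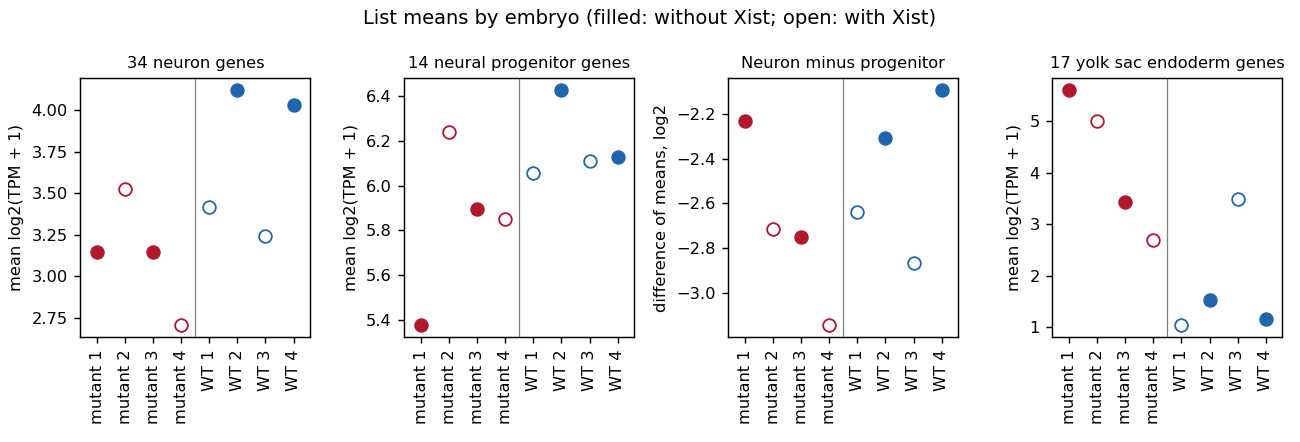
Mean of log2(TPM + 1) per embryo over the 34 neuron genes, over 14 neural progenitor genes, the difference of both, and over 17 yolk sac endoderm genes (points; mutants left of WT, filled without Xist, open with Xist). WT 2 and 4 are the highest in the first panel at 4.12 and 4.03, and mutants 1 and 2 are the highest in the last at 5.60 and 5.01.

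Transcripts of other tissues moved with genotype beside these genes. Over all tested genes, 62.3% had a log2 fold change below 0. All 17 tested yolk sac endoderm genes had a log2 fold change above 0, with sums of 1505, 924.6, 260.1 and 161.5 TPM in mutants 1 to 4 and 24.6, 53.8, 289.5 and 30.6 TPM in WT 1 to 4. Mutant 4 had the lowest neuron mean and the lowest yolk sac sum of the mutants, and WT 3 had the lowest neuron mean and the highest yolk sac sum of the WT embryos. Trophoblast and decidua genes (6 of 6 above 0, sums of 41.7 to 345.3 TPM in mutants and 27.1 to 56.2 TPM in WT), heart muscle genes (10 of 11) and endothelial genes (9 of 10) also lay mostly above 0. At an unadjusted limma p under 0.05, all 17 yolk sac genes and 2 of the 6 trophoblast and decidua genes were higher. So were 7 of the 11 heart muscle and 8 of the 10 endothelial genes, against 5.55% of all tested genes. Of 9 tested primitive red cell genes 0 were below 0, with a median of 0.15, and 0 had an unadjusted limma p under 0.05. The part of these transcripts, of mt-Nd6 and of Xist status in the neuron gene differences was not tested beyond the fits given here. Neural crest and glial precursor genes were level, with 4 of 9 below 0 and a median of 0.02. TPM was also rescaled after leaving out yolk sac, trophoblast, globin and mitochondrial genome transcripts. In that fit 32 of the 34 neuron genes stayed below 0, against 7794 of 13549 tested genes, with a median of -0.64. Rescaling multiplies all genes of a library by a single factor. The part left out was 8.47% to 11.1% of TPM in mutants and 6.89% to 9.98% in WT embryos. That fit could therefore move fold changes only slightly, and the part of those tissues in the neuron gene differences was not tested by it. Mutant 1 and WT 3 are the embryos of each genotype with the highest yolk sac sum. Without them, 34 of 34 neuron genes were below 0 with a median of -0.74, against 8897 of 13596 tested genes below 0.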

How the data were processed

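RNA of 8 single embryos was sequenced from TruSeq libraries on a NovaSeq instrument, per the labels. The authors deposited TPM per gene symbol; the build is GRCm38 (mm10), per the submitters' processing notes, while the aligner, counter, annotation release and strand setting were not given in the sources used here. All 8 columns matched a sample by name. The set and the lists were chosen with earlier results of these data known.

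Genes with at least 1 TPM in at least 4 embryos were fitted by limma (version 3.58.1, R 4.3.3). The response was log2(TPM + 1), with a trend and genotype as the only term, and p-values were adjusted by Benjamini-Hochberg over all 13596 tested genes. Fold changes are on the TPM + 1 scale, which brings those of low genes nearer 0. The fit was run on simulated data in which genes were drawn independently. Genes of the set moved together across embryos, so that run does not bear on counts over the set. Embryos of a genotype are separate animals. Reads were recovered from TPM steps with merged exon lengths of GENCODE M21: 93.7% of 23993 genes with a value were whole within 0.02 reads in all 8 libraries, 1510 with another length, and 1 was not recovered. Gene positions are from GENCODE M21 and promoters from RefSeq GRCm38.p6.

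Every gene of the set is named. Values in each embryo are given for the 12 with the smallest p, the Stmn and Elavl families, the neurogenins and Neurod genes, genes above 0, and others added after their values were seen; of each other list at most 3 genes with the smallest p are named, apart from the library and Xist checks. The split by Xist, the interaction and the motifs searched were chosen after seeing the data. Alternatives were other pseudocounts, filters, scalings and weights, no trend, leaving out embryos, voom and a replicate block.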

Additional observations from a re-analysis of the deposited data

Results flagged for a closer look

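Of 72 groups of 4 embryos checked (36 genes in 2 genotypes), 1 held an embryo far from the rest. Snap25 reached 0.858 TPM in mutant 2, and mutants 1, 3 and 4 had 0.280 to 0.339 TPM. The gap was 0.899 of the group's whole range, above Dixon's 95% limit. Chance flags about 1 in 20 groups. The value rests on 106 reads, and mutant 2 was also the highest mutant for 26 of the 34 tested genes.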

How the results depend on the processing

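Under each of the 23 alternatives, between 27 and 34 tested genes of the set had a log2 fold change below 0 and the median stayed below 0. Over all tested genes, from 5618 of 13596 (without mutants 3 and 4) to 9094 of 13596 (array weights) were below 0. The count of genes past the adjusted threshold over all genes was 0 except for 3 without mutants 3 and 4 and for 0 to 1 when a single embryo was left out, none of them in the set. Leaving out single embryos gave 4 to 22 genes of the set at an unadjusted limma p under 0.05, against 15 with all embryos, and medians of -0.79 to -0.50. Over all 13596 tested genes, 1158 (without WT 1) to 3094 (without mutant 2) had such a p, against 1842 with all embryos. The count for the set was 1 without mutants 3 and 4, 1 among embryos with Xist and 28 among those without. The shares of all tested genes there were 12.6%, 6.77% and 8.5%. The median of the set among embryos with Xist was -0.24. Signs turned for genes near 0. Rtn1 was at -0.0711 with array weights, -0.11 without mutant 1 and WT 3, -0.20 among embryos without Xist, and -0.0580 to 0.112 with single embryos left out. Gap43 was at -0.0265 with array weights, -0.12 without mutant 1 and WT 3, and -0.0801 to 0.0637 with single embryos left out. Dpysl3 was at 0.00719 with median-ratio scaling, 0.0108 without mutants 3 and 4, 0.25 among embryos with Xist, and -0.12 to 0.0740 with single embryos left out. Ebf2 was at 0.10 without mutants 3 and 4, and among embryos with Xist Crmp1 was at 0.33, Onecut2 at 0.14, Gng3 at 0.24 and Ina at 0.0353. The cause was not tested. The replicate block gave 17 genes of the set at an unadjusted limma p under 0.05, against 1900 of 13596 tested genes, and a median of -0.65. The numbers do not pair embryos: same-numbered embryos correlated at -0.0618, 0.0398, -0.194 and -0.245 after centring, and 0 of 8 embryos correlated best with their own number. Depth limits Snap25 and Syt1, and Nhlh2 and Stmn4 in mutant 4 (47 and 48 reads).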
